A study of Mus musculus with 5 samples.

Results

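In primary mouse mammary epithelial cells, 669 of the 7309 RNA polymerase II (RNAPII) peaks under 5 kb wide overlapped a NELF-A peak, a NELF-B peak and a DRIP peak, each by at least 1 bp. They are called 4-target peaks here. They were chosen by the width of the RNAPII peak and by peak positions in the 4 lists, so their presence in all 4 lists is a description and not a result. The full RNAPII list held 7718 peaks, and a further 210 peaks of 5 kb or more also overlapped all 3 other lists.

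Chromatin occupancy was profiled by ChIP-seq for RNAPII, NELF-A and NELF-B, and R-loops were profiled by DRIP-seq, in cells from thoracic and inguinal glands of mixed-strain virgin mice, 6 to 8 weeks old. All samples shared this source, and the sources used here give neither a genotype or treatment of the animals nor whether animals were pooled or shared between assays. The RNAPII and DRIP sample titles name 2 libraries each, with 1 peak list for the pair, and NELF-A and NELF-B, precipitated with homemade antibodies, had 1 sample and 1 list each. NELF-A and NELF-B libraries were made from 0.2 ng of ChIP DNA with 18 PCR cycles. RNAPII had 1 ng and 15 cycles, and DRIP had 15 cycles. Whether this difference affects which NELF peaks were listed was not tested. The remaining sample, DRIP-seq after RNase H digestion, was not analysed here, so the sensitivity of these DRIP peaks to RNase H was not tested.

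NELF, the negative elongation factor, is a complex that holds RNAPII shortly after it starts transcription, in the state called promoter-proximal pausing. NELF-A contacts the polymerase, and NELF-B is a scaffold subunit of the same complex, so both are usually found together where polymerase pauses. An R-loop is a stretch in which the nascent RNA pairs with its DNA template and leaves the other DNA strand single, and it is pulled down in DRIP-seq by an antibody against RNA-DNA hybrids. R-loops are known to form near the starts and ends of transcribed genes.

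Each target had 1 list of peaks with a position on mm9 and a score. The score is the authors' own value per peak, with no stated unit, and it was used only to rank or compare peaks within 1 list. The RNAPII, NELF-A, NELF-B and DRIP lists held 7718, 10782, 3925 and 10031 peaks, and widths were multiples of 250 bp except for 1 DRIP peak. Read depth is unknown because the lists hold no read counts. With 1 list per target there is no replicate, so no p-value is given: shares carry 95% Wilson intervals, and differences between classes of peaks carry odds ratios with 95% intervals. These intervals cover counting error over peaks only, and they treat as separate some neighbouring peaks that share a partner peak. The lists give no gene and no strand. Genes at these positions, and with them a check of the cell type by its marker genes, were not analysed here.

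Among RNAPII peaks under 5 kb, 72.2% overlapped NELF-A, 37.2% overlapped NELF-B and 19.2% overlapped DRIP, and the 669 peaks with all 3 made up 9.15%. 4 other classes serve for comparison. A total of 2034 peaks under 5 kb had both NELF subunits and no DRIP peak (DRIP-free peaks). Another 402 had NELF-A and DRIP but no NELF-B (NELF-B-free peaks), and 332 had DRIP but neither subunit (NELF-free peaks). The 210 peaks of 5 kb or more with all 4 targets are called broad peaks. Of the remaining peaks under 5 kb, 2170 had NELF-A alone, 1689 had none of the 3, 12 had NELF-B alone, and 1 had NELF-B and DRIP without NELF-A.

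The 4-target peaks were 500 to 4750 bp wide, with a median of 1750 bp, against a median of 1000 bp in DRIP-free peaks. Their share of all RNAPII peaks was 1.12% at 500 bp (18 of 1604; 0.711 to 1.77%), 5.21% at 1000 bp, 13.5% at 1500 bp, 23.4% at 2000 bp and 36.1% at 3500 bp. Above that the share did not go on increasing, with 20.5% at 4000 bp (9 of 44; 11.2 to 34.5%), 22.0% at 4250 bp and 39.1% at 4750 bp (9 of 23; 22.2 to 59.2%). Wider RNAPII peaks offer more bases in which another peak can fall, so the higher share in wider peaks is partly set by the overlap rule. Among peaks that already carried both subunits, DRIP was present at 6.72% of the 500 bp peaks (4.29 to 10.4%), at 27.1% of the 1500 bp peaks at 74.3% of the 3500 bp peaks (57.9 to 85.8%) and at 50% of the 4000 bp peaks (29.0 to 71.0%). Because width differed so much between classes, the odds ratios against the classes under 5 kb were also computed between RNAPII peaks of equal width. Broad peaks share no width with 4-target peaks and could not be matched.

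**Figure D1:**
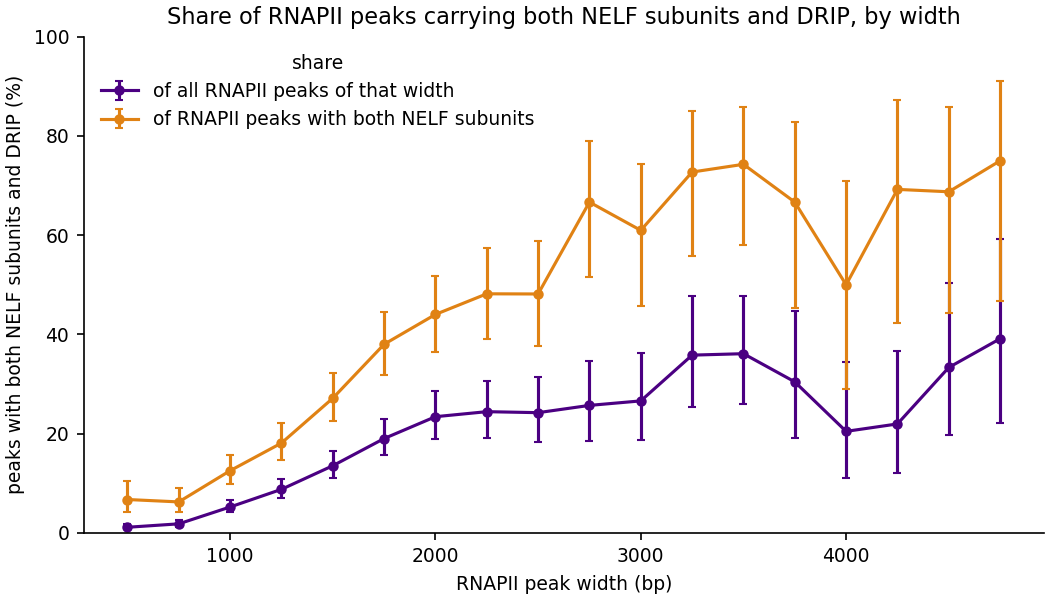
Share of RNAPII peaks that were 4-target peaks, and share of peaks with both NELF subunits that had a DRIP peak, in percent, by RNAPII peak width in bp. Vertical lines are 95% Wilson intervals. Both shares are lowest at 500 and 750 bp, at 1.12% and 1.81% for 4-target peaks, and the share with DRIP among peaks with both subunits is 74.3% at 3500 bp and 50% at 4000 bp.

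The limit of 5 kb cuts through a continuous range. Just inside it, 9 of 23 RNAPII peaks of 4750 bp had all 4 targets, with RNAPII scores of 1538 to 2321, a median NELF-A score of 114, a median NELF-B score of 24 and a median DRIP score of 104. Just outside it, 12 of 30 peaks of 5000 bp had all 4, with RNAPII scores of 1415 to 3309 and medians of 91.5 (NELF-A), 22.5 (NELF-B) and 208.5 (DRIP). The ranges of RNAPII scores on either side of the limit overlap.

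Some 4-target peaks lay in regions where several targets at once had extreme scores. A region of extra-high signal was defined, after the scores had been seen, as a joined stretch of peaks in which at least 3 lists had a peak in their top 1% by score per base or among their 10 highest scores. There were 16 such regions among 19136 joined stretches, 11 of them held 4-target peaks, and these contained 29 of the 669. A stretch near the start of chromosome 9, chr9:2999751-3038750, held 10, and another near the start of chromosome 11, chr11:3025501-3100250, held 8. Both stretches lay under a single DRIP peak across these 4-target peaks. The 29 peaks had a median DRIP score of 22429, against 125 for the other 640, a median NELF-A score of 220 against 62 and a median NELF-B score of 172 against 13. Their median RNAPII score was lower, at 322 against 638. The regions were defined by such scores, so the higher DRIP, NELF-A and NELF-B medians are partly set by that choice. Neighbouring 4-target peaks there also share partner peaks, whose scores count more than once in these medians. Of all 7309 RNAPII peaks under 5 kb, 7279 lay outside these regions, and so did all 2034 DRIP-free peaks. Nearly all RNAPII peaks under 5 kb inside them were thus 4-target peaks. A region needed peaks of at least 3 lists, so this too is partly set by the definition. The main results were recomputed without the 29 peaks, and some of the recomputed values are given beside the results below.

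The 669 peaks met 707 distinct NELF-A peaks, 700 NELF-B peaks and 852 DRIP peaks. These are 6.56%, 17.8% and 8.49% of the NELF-A, NELF-B and DRIP lists. At most 10 of the 669 shared 1 DRIP peak, and outside the regions of extra-high signal at most 2 did. By chromosome, the 4-target share of RNAPII peaks ran from 6.38% on X (9 of 141; 3.39 to 11.7%) to 13.1% on chromosome 11 (89 of 679; 10.8 to 15.9%), with a median of 8.57% over 20 chromosomes. Without the regions of extra-high signal it was 11.7% on chromosome 11 and 9.0% on chromosome 9, against 11.4% on chromosome 9 with them.

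NELF-A and NELF-B lay together in almost every 4-target peak. They shared at least 1 base inside the RNAPII peak in 668 of the 669 (99.9%). The exception, chosen here after its values were seen, was chr1:182332001-182335250, a peak of 3250 bp with NELF-A and NELF-B scores of 10 and 7. In 617 of the 669 (92.2%; 89.9 to 94.0%) the highest-score NELF-B peak lay wholly inside the NELF-A peak, against 92.7% of DRIP-free peaks (odds ratio 0.94, 0.68 to 1.30). NELF-A covered 74.1% and NELF-B 47.8% of the RNAPII peak on average, against 86.6% and 61.8% in the narrower DRIP-free peaks.

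The centres of the 2 subunits were less tightly paired in 4-target peaks than in DRIP-free peaks. They lay within 250 bp of each other in 535 of 669 4-target peaks (80.0%; 76.8 to 82.8%) and in 1857 of 2034 DRIP-free peaks (91.3%). The odds ratio was 0.38 (0.30 to 0.49), and between RNAPII peaks of equal width it was 0.64 (0.48 to 0.84). The interval stayed below 1 without the regions of extra-high signal, at 0.68 (0.51 to 0.90). Where neither subunit was centred exactly on the RNAPII peak, both lay on the same side of its centre in 418 of 483 4-target peaks (86.5%; 83.2 to 89.3%), against 82.5% (80.1 to 84.6%) of DRIP-free peaks. The odds ratio was 1.36 (1.01 to 1.85), but 0.99 (0.70 to 1.40) at equal width.

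A second NELF-A peak was found in 43 4-target peaks (6.43%), against 1.72% of DRIP-free peaks, an odds ratio of 3.92 (2.49 to 6.18). At equal width the odds ratio was 1.13 (0.67 to 1.89), so the difference was not detectable between peaks of the same size. The same held for NELF-A peaks that ran past an end of the RNAPII peak, at 32.4% of 4-target and 51.3% of DRIP-free peaks. There the odds ratio was 0.46 (0.38 to 0.55) as listed and 1.13 (0.91 to 1.40) at equal width.

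NELF-A sat near an end of the RNAPII peak in a minority of 4-target peaks. Its centre was in the outer 25% of either end, or beyond that end, in 128 of 669 (19.1%; 16.3 to 22.3%), against 12.6% of DRIP-free peaks, 28.4% of NELF-B-free peaks and 91.0% of broad peaks. Against DRIP-free peaks the odds ratio was 1.64 (1.30 to 2.07), but 1.26 (0.95 to 1.67) at equal width. Against NELF-B-free peaks it was 0.60 (0.45 to 0.80), and 0.54 (0.39 to 0.73) at equal width. NELF-A was therefore less often at the edge in 4-target peaks than where NELF-A and DRIP occurred without a NELF-B peak.

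Most 4-target peaks had a base under all 4 lists, 491 of 669 (73.4%; 69.9 to 76.6%). NELF-A, NELF-B and DRIP covered 74.1%, 47.8% and 59.6% of the RNAPII peak on average, and peaks this long often share a base. The share expected from these lengths alone was not computed. The covered length had a median of 500 bp over all 669, and outside the regions of extra-high signal it reached 1500 bp in 1 stretch. NELF-A and DRIP shared a base in 600 (89.7%; 87.2 to 91.8%). A DRIP peak covered the very centre of the NELF-A peak in 367 of 669 (54.9%; 51.1 to 58.6%), against 197 of 402 NELF-B-free peaks (49.0%). That odds ratio was 1.26 (0.99 to 1.62), at equal width 1.32 (1.02 to 1.69), and at equal width without the regions of extra-high signal 1.20 (0.93 to 1.55), so its interval excluded 1 in only 1 of these 3 settings.

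The other 178 4-target peaks had no base under all 4 lists, and all of them lay outside the regions of extra-high signal. In 95 of them a DRIP peak directly abutted the NELF-B peak, and the widest gap was 2750 bp. Of the 132 in which DRIP lay on 1 side of NELF-B and NELF-A was off centre, DRIP lay towards the far end of the RNAPII peak, away from the end nearer to NELF-A, in 100 (75.8%; 67.8 to 82.3%). The far side is also the longer one, since NELF-A is off centre by definition here. DRIP and NELF-A still shared a base in 109 of the 178.

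**Figure D2:**
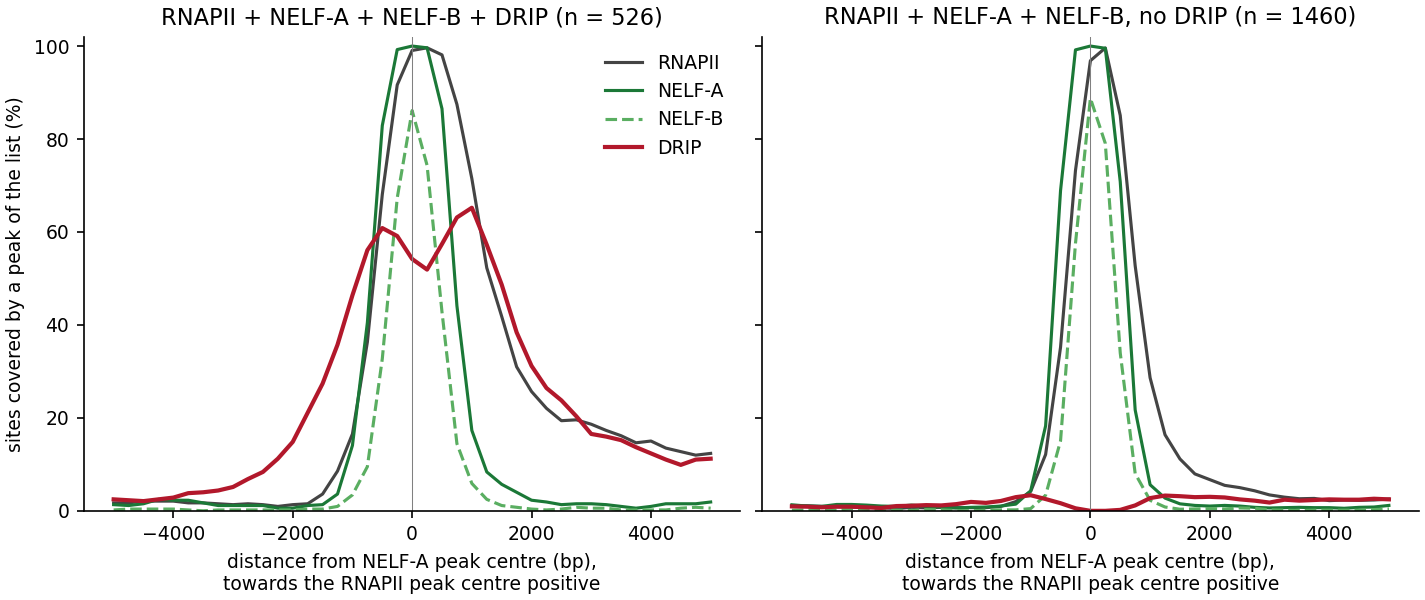
Percent of peaks covered by each list, by distance in bp from the centre of the NELF-A peak, outside the regions of extra-high signal and turned so that the nearer RNAPII end is on the left: 526 4-target peaks, beside 1460 DRIP-free peaks. DRIP coverage of 4-target peaks has 2 maxima, 60.8% at 500 bp on the left and 65.2% at 1000 bp on the right, with 51.9% at 250 bp on the right, next to the NELF-A centre.

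Across distance from the NELF-A centre, DRIP coverage was not highest at that centre. The profile was taken over the 526 4-target peaks outside the regions of extra-high signal in which NELF-A was off centre, turned so that the nearer RNAPII end was on the left. NELF-B covered 86.1% of them at the NELF-A centre, 42.8% at 500 bp to the right and 5.89% at 1000 bp to the right. DRIP covered 54.2% at the NELF-A centre, 51.9% at 250 bp to the right and 65.2% at 1000 bp to the right, and 60.8% at 500 bp to the left. The profile is centred on NELF-A, so NELF coverage is highest there by construction. DRIP coverage near that centre was lower than on either side. The same shape was present without turning the peaks: along the chromosome, DRIP covered 59.4% at 500 bp before the NELF-A centre, 52.8% at it and 59.1% at 500 bp after it (640 peaks). DRIP was also lower at the NELF-A centre in 330 NELF-B-free peaks. There it covered 54.2% at 500 bp to the left, 48.5% at the centre and 60.6% at 500 bp to the right. In 201 broad peaks these values were 61.2%, 63.7% and 70.1%. No interval was computed for differences between positions, because the same peaks are counted at each.

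In the same profile, RNAPII coverage reached further beyond NELF-A in 4-target peaks. At 2000 bp to the right, RNAPII covered 25.7% of 4-target peaks, against 6.71% of DRIP-free peaks, and at 5000 bp it covered 12.4% against 2.53%. At 5000 bp this is other RNAPII peaks, since no peak of these classes is that wide. At 2000 bp to the left, RNAPII covered 1.33% of 4-target peaks and 0.685% of DRIP-free peaks. The 4-target peaks are wider, and this profile was not adjusted for width.

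DRIP was broken into several peaks in many 4-target peaks. Within the RNAPII peak 190 of 669 (28.4%; 25.1 to 31.9%) had at least 2 DRIP peaks, against 24.9% of NELF-B-free peaks, with an odds ratio of 1.20 (0.90 to 1.59), and 0.93 (0.69 to 1.25) at equal width. In 149 of the 190 a true gap separated the DRIP peaks. The gaps took up 26.3% of the RNAPII peak's width on average, and the NELF-A centre fell in a gap in 79 of the 149 (53.0%; 45.0 to 60.9%). The NELF-B centre fell in one in 80 (53.7%), and the centre of the RNAPII peak in 98 (65.8%; 57.8 to 72.9%). A gap must lie between DRIP peaks and so tends towards the middle, so the RNAPII centre is the closer comparison. The NELF centres fell in gaps in fewer peaks than the RNAPII centre did, a difference that was not tested. In NELF-B-free peaks the NELF-A centre fell in a gap in 44 of 79 (55.7%), and in broad peaks in 16 of 126 (12.7%).

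DRIP peaks usually ran past the RNAPII peak they overlapped. They did so in 499 of 669 4-target peaks (74.6%; 71.2 to 77.7%), past both ends in 160 (23.9%), and in 146 (21.8%) they covered the RNAPII peak whole. Outside the regions of extra-high signal, whole cover was found in 119 of 640 (18.6%). They ran past the end nearer to NELF-A in 284 of 552 peaks with NELF-A off centre (51.4%) and past the far end in 260 (47.1%). The share was 75.9% in NELF-B-free peaks (odds ratio 0.93, 0.70 to 1.24) and 75.3% in NELF-free peaks (odds ratio 0.96, 0.71 to 1.31), and neither interval excluded 1. At equal width the odds ratios were 1.08 (0.80 to 1.47) against NELF-B-free and 1.32 (0.94 to 1.85) against NELF-free peaks.

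Over the 4-target peaks as a whole, no preference of DRIP for the NELF-A side or the far side was detectable. Of the 552 with NELF-A off centre, 200 had more DRIP coverage on the NELF-A side of the RNAPII midpoint, 195 had more on the far side and 157 had the same on both (132 of 526 without the regions of extra-high signal). Among those with a difference the share was 50.6% (45.7 to 55.5%), and mean coverage was 60.2% on the NELF-A side and 60.3% on the far side. In NELF-B-free peaks the share was 45.4% (109 of 240; odds ratio 1.23, 0.89 to 1.70, and 1.10, 0.79 to 1.54, at equal width). In broad peaks it was 78.5% (153 of 195; odds ratio of 4-target over broad peaks 0.28, 0.19 to 0.42).

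The side share differed with width within the 4-target peaks. More DRIP lay on the NELF-A side in 46.6% of those of 500 to 1250 bp (34 of 73), in 45.8% of those of 1500 to 2000 bp (66 of 144) and in 51.5% of those of 2250 to 3000 bp (50 of 97). It did so in 61.7% of those of 3250 to 4750 bp (50 of 81; 50.8 to 71.6%). The widest group stood above the 3 narrower groups together, at 61.7% against 47.8% (odds ratio 1.76, 1.07 to 2.91), a grouping made after the values were seen. Among broad peaks the share was 77.2% at 5000 to 9750 bp and 80.2% at 10000 bp or more. Where NELF-A was in the outer 25% of the RNAPII peak, more DRIP lay on its side in 48 of 87 4-target peaks (55.2%), against 33 of 85 NELF-B-free peaks (38.8%), an odds ratio of 1.94 (1.06 to 3.56). At equal width it was 1.32 (0.67 to 2.57), so this difference was not detectable between peaks of the same size. Against broad peaks of that kind (143 of 179, 79.9%) it was 0.31 (0.18 to 0.54).

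**Figure D3:**
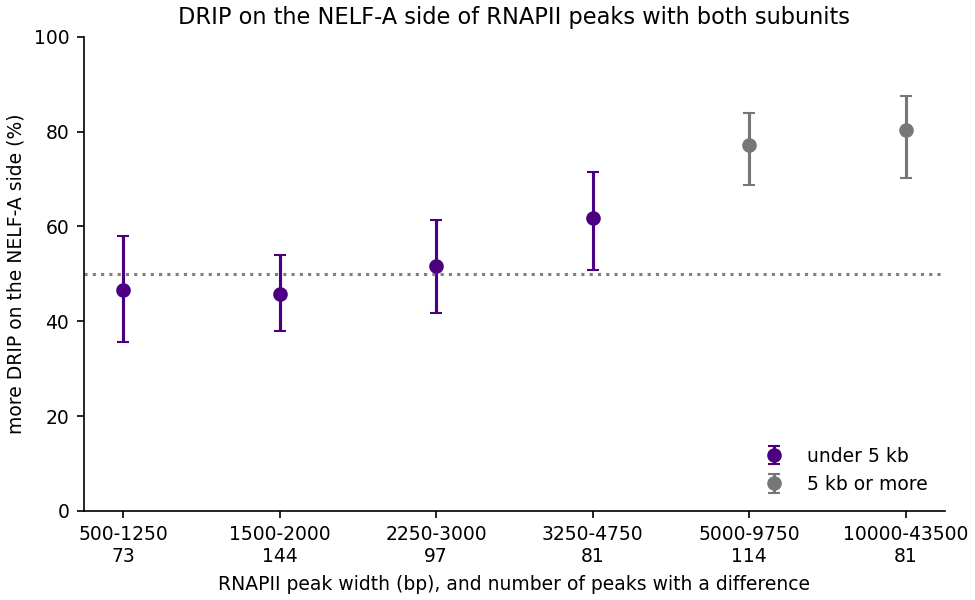
Share of RNAPII peaks with more DRIP coverage on the NELF-A side than on the far side, in percent of those with a difference, by RNAPII peak width, with 95% Wilson intervals. The 4-target peaks of 500 to 3000 bp lie close to 50%, those of 3250 to 4750 bp are at 61.7%, and the broad peaks are at 77.2% and 80.2%.

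The 4-target peaks lay closer to other RNAPII peaks than DRIP-free peaks did. Their median distance to the next RNAPII peak was 27250 bp, against 50000 bp for DRIP-free peaks and 22500 bp over all 7309 RNAPII peaks under 5 kb. Another RNAPII peak lay within 2 kb of 170 of 669 (25.4%; 22.3 to 28.8%), against 158 of 2034 DRIP-free peaks (7.77%). Over all RNAPII peaks under 5 kb the share was 26.3% (1920 of 7309), so the 4-target peaks were near the overall level and the DRIP-free peaks below it. The odds ratio was 4.05 (3.19 to 5.13), at equal width 2.17 (1.66 to 2.83), and at equal width without the regions of extra-high signal 1.78 (1.34 to 2.36). NELF-B-free peaks were similar to 4-target peaks in this, at 22.1% (odds ratio 1.20, 0.89 to 1.61). NELF-free peaks differed widely from them, since 80.4% had another RNAPII peak within 2 kb (odds ratio 0.083, 0.060 to 0.11).

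These neighbours were mostly at the end of the RNAPII peak away from NELF-A, more often than in DRIP-free or NELF-B-free peaks as listed. Among 4-target peaks with NELF-A off centre and a neighbour within 2 kb at 1 end, the neighbour was at the far end in 122 of 147 (83.0%; 76.1 to 88.2%). In DRIP-free peaks it was in 83 of 132 (62.9%; odds ratio 2.88, 1.65 to 5.03), and in NELF-B-free peaks in 46 of 72 (63.9%; odds ratio 2.76, 1.45 to 5.26). At equal width these odds ratios were 1.89 (0.99 to 3.58) and 1.95 (0.90 to 4.20), and both intervals include 1. Without the regions of extra-high signal they were 2.26 (1.11 to 4.63) against DRIP-free and 2.15 (0.93 to 4.95) against NELF-B-free peaks at equal width. Broad peaks had the neighbour at the far end in 92 of 100 (odds ratio 0.42, 0.18 to 0.98, and 0.46, 0.19 to 1.14, without the regions of extra-high signal). No lean of DRIP towards the neighbour was detectable: among 106 4-target peaks with a neighbour at 1 end and a difference in DRIP between sides, 52 had more DRIP on the side facing it (49.1%; 39.7 to 58.4%). In 44 4-target peaks (6.58%) another RNAPII peak touched directly. Touching was not confined to 4-target peaks, since merging touching peaks reduced the RNAPII peaks under 5 kb from 7309 to 6987. Whether touching neighbours are pieces of 1 stretch divided in the peak calling was not tested.

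Scores of the NELF and RNAPII peaks were higher in 4-target peaks than in DRIP-free peaks, and most of the difference went with width. NELF-A scores were 10 to 1201 with a median of 64 in 4-target peaks, and 9 to 298 with a median of 44 in DRIP-free peaks. Between RNAPII peaks of equal width the medians were 64 and 56, a ratio of 1.14, and the 4-target median was higher at 16 of 18 widths. Each width of 3250 bp or more held only 3 to 9 DRIP-free peaks, so medians there rest on few peaks. NELF-B scores were 7 to 856 with a median of 13 in 4-target peaks, and 7 to 52 with a median of 10 in DRIP-free peaks. At equal width the NELF-B medians were 13 and 12. The score ranges of these classes overlap, and with 1 list per target no test of these ratios was possible.

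RNAPII scores were 105 to 2756 with a median of 626 in 4-target peaks, and 104 to 2501 with a median of 303 in DRIP-free peaks. Per 250 bp of peak, the medians were 83.7 and 67.3, and at equal width 83.7 and 79.9, a ratio of 1.05. The 4-target median per 250 bp was the higher at 12 of 18 widths and the lower at 6.

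**Figure D4:**
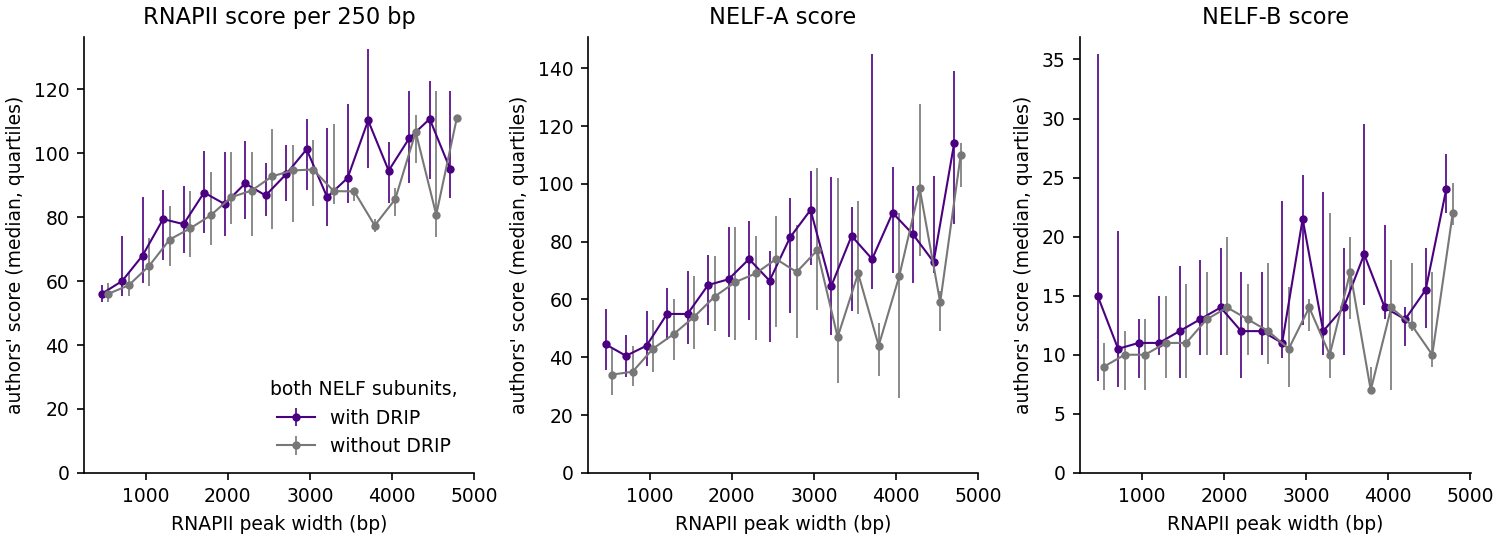
Median authors' scores of NELF-A, NELF-B and RNAPII (RNAPII per 250 bp of peak) by RNAPII peak width in bp, for 4-target peaks and DRIP-free peaks outside the regions of extra-high signal, with lines from the lower to the upper quartile. NELF-A medians are higher in 4-target peaks at 16 of 18 widths, and the quartile lines of both classes overlap at most widths. Each width of 3250 bp or more holds only 3 to 9 DRIP-free peaks.

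The larger NELF-A contrast was with peaks that lacked NELF-B. NELF-A scores in NELF-B-free peaks were 9 to 163 with a median of 32, so that the ratio of the 4-target median to it was 2.00, and 1.91 at equal width. These classes differ by whether a NELF-B peak was listed, and NELF-A and NELF-B scores go together, so this ratio is not independent of how the peaks were chosen. DRIP scores differed less, with medians of 130 in 4-target peaks, 111.5 in NELF-B-free peaks and 145.5 in NELF-free peaks. RNAPII score per 250 bp was 83.7 in 4-target peaks and 56.4 in NELF-free peaks, a ratio of 1.48, and 1.42 at equal width.

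Within the 669, DRIP scores had low rank correlations with the other scores, while NELF-A and NELF-B scores went together. These rank correlations are descriptions across peaks of the same libraries. Spearman's rho was 0.58 between NELF-A and NELF-B scores, 0.48 between RNAPII score per 250 bp and NELF-A score, 0.17 between NELF-A and DRIP scores and 0.097 between RNAPII score per 250 bp and DRIP score. Outside the regions of extra-high signal (640 peaks) the NELF-A and DRIP value was 0.077 and the RNAPII per 250 bp and DRIP value was 0.16. DRIP score followed DRIP peak width closely (0.96), so a peak with a high DRIP score was also a wide one. The 4-target peaks with a higher DRIP score had more bases under all 4 lists (0.60), which is partly built in, since a wider DRIP peak can cover more bases.

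The 18 narrowest 4-target peaks, of 500 bp, differed from DRIP-free peaks of that width in median NELF-B score. Their median NELF-B score was 38, against 9 in the 250 DRIP-free peaks of that width. Of the 18, 6 lay in regions of extra-high signal, 5 of them on the stretch of chromosome 9 given above. Without these the median of the other 12 was 15. Their quartiles, 7.75 and 35.5, overlapped those of the DRIP-free peaks, 7 and 11. Among the 12, chr4:70039001-70039500 had a NELF-B score of 65 and chrX:139917251-139917750 had 69, with RNAPII scores of 128 and 109, close to the lowest of the list. Both were over 1000 kb from the next RNAPII peak, at 3548500 bp and 1091750 bp, and both were picked out after their values were seen.

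Ranked by the sum of their ranks in the 4 lists, 4 of the first 10 4-target peaks lay in regions of extra-high signal. The first, chr11:62363251-62365750, had an RNAPII score of 1851, with 165 (NELF-A), 47 (NELF-B) and 1635 (DRIP) beside it. At chr11:3082001-3086500 RNAPII scored 1126, NELF-A 790, NELF-B 848 and DRIP 25407, and all 4500 bp lay under all 4 lists. At chr2:98506251-98507750 NELF-B had its highest score among the 669, 856, beside 983 for RNAPII. The 3 highest NELF-A scores, the 3 highest NELF-B scores and the 3 highest DRIP scores all came from such regions, and so did the 3 longest stretches under all 4 lists, of 3000 to 4500 bp. The regions were defined by such scores, so this is partly set by the definition. The 3 DRIP scores were of a single DRIP peak. The NELF-A score of 790 and the NELF-B score of 848 were each shared by neighbouring 4-target peaks. A NELF-A score of 1201 at chr11:3049501-3051750 came with an RNAPII score of only 605.

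Outside these regions the top-ranked 4-target peaks were 3500 to 4750 bp wide. At chr19:46377501-46381250 RNAPII scored 2568, NELF-A 162, NELF-B 31 and DRIP 759. There NELF-A lay just off the middle, and DRIP covered the whole NELF-A side and 6.67% of the far side, running on beyond the RNAPII end. At chr10:96078501-96082000, which had the highest RNAPII score of the 669, 2756, NELF-A scored 214, NELF-B 39 and DRIP 357. DRIP covered its NELF-A side whole and 42.9% of its far side. The third-highest RNAPII score, 2557, was in a region of extra-high signal, at chr11:69570001-69573500, beside NELF-A and NELF-B scores of 349 and 85 and a DRIP score of 193.

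Other top-ranked peaks had DRIP across their full width. At chr17:35516001-35520250 an 8000 bp DRIP peak with a score of 1741 covered the whole RNAPII peak, whose score was 2210, and NELF-A and NELF-B, with scores of 103 and 28, began at its very edge. At chr9:40607751-40611250 the DRIP peak had the same start and end as the RNAPII peak, with scores of 426 for DRIP, 2252 for RNAPII, 205 for NELF-A and 31 for NELF-B. This peak, chr16:44138001-44141250 and chr13:58501751-58504750 had the longest stretch under all 4 lists outside the regions of extra-high signal, 1500 bp.

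The top-ranked peaks also held cases with less DRIP on the far side than on the NELF-A side. At chr11:79064251-79068750 DRIP covered all of the NELF-A side and none of the far side, where RNAPII scored 2221, NELF-A 104, NELF-B 25 and DRIP 699. At chr1:64578501-64583250, where RNAPII scored 2016, NELF-A 139, NELF-B 26 and DRIP 485, DRIP covered the NELF-A side whole and 26.3% of the far side, and the next RNAPII peak was 80000 bp away. At chr16:23107001-23111000, where RNAPII scored 2462, NELF-A 154, NELF-B 42 and DRIP 556, DRIP covered 62.5% of the NELF-A side and 50% of the far side. Of the 10 best outside the regions of extra-high signal, 6 had more DRIP on the NELF-A side, 2 had more on the far side, and 9 had another RNAPII peak within 2 kb. The ranking used the scores, and high scores go with wide peaks, so these 10 are not typical of the 669.

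**Figure D5:**
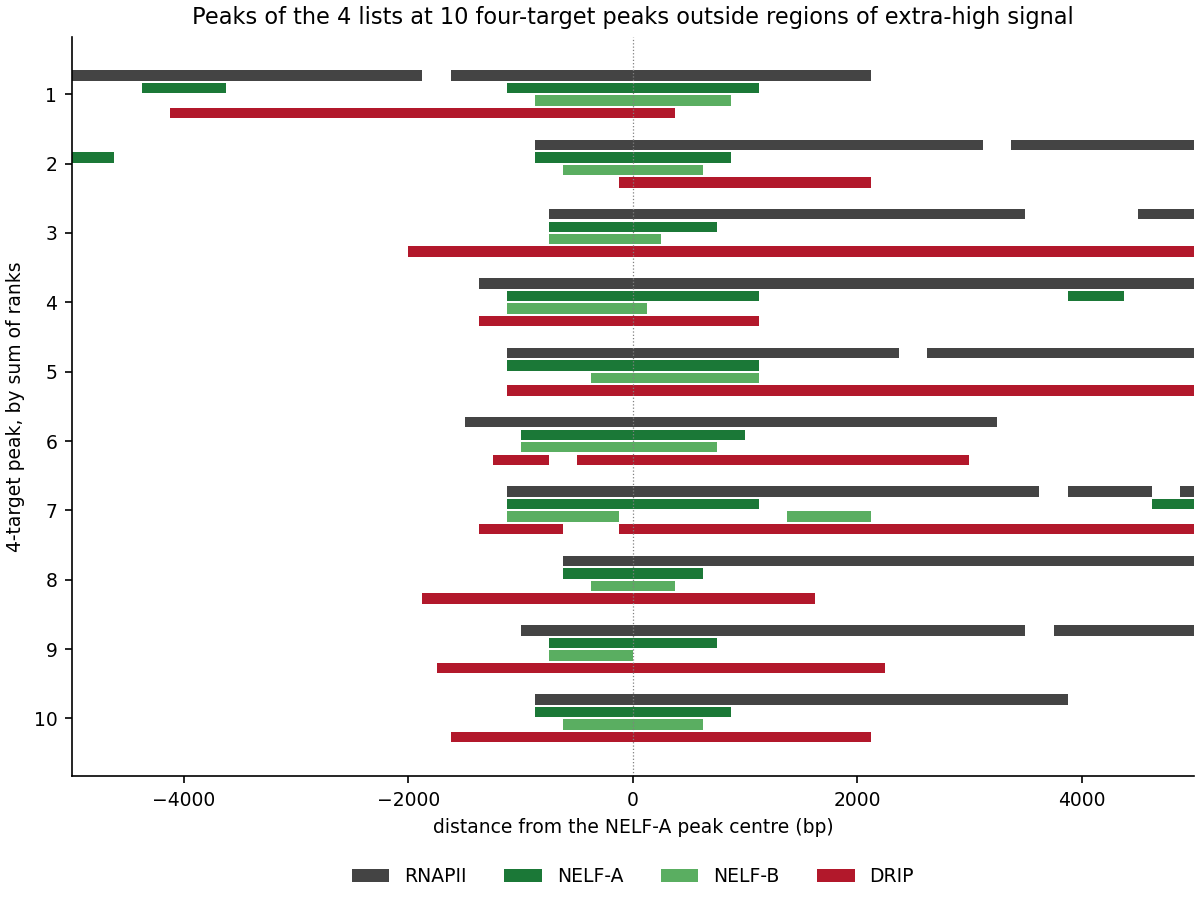
Extent of the RNAPII, NELF-A, NELF-B and DRIP peaks at the 10 best-ranked 4-target peaks outside the regions of extra-high signal, by distance in bp from the centre of the NELF-A peak, turned so that the nearer RNAPII end is on the left. The highest-score NELF-B peak lies within NELF-A in each row, while DRIP reaches over the whole RNAPII peak in some rows and over part of it in others.

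The 9 widest 4-target peaks, all 4750 bp, were uneven. RNAPII scores were 1538 to 2321, NELF-A scores 39 to 219, NELF-B scores 11 to 39 and DRIP scores 39 to 839. More DRIP lay on the NELF-A side in 6 and on the far side in 3, and 3 had no base under all 4 lists. At chr12:101437251-101442000 NELF-A and NELF-B scored 219 and 39, the highest of the 9, and DRIP scored 82, in a 1000 bp peak within the NELF-A peak. At chr1:64165251-64170000 the RNAPII score was 2321, the highest of the 9, and a DRIP peak of 750 bp with a score of 58 lay wholly on the far side, apart from NELF-A.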

How the data were processed

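RNAPII, NELF-A and NELF-B ChIP-seq and DRIP-seq peak lists, 1 per target, were used. Per the submitters' processing notes, BWA and the genome build mm9 were used. Which peak caller, threshold and input control were used is not given in the sources used here. The deposited lists give chromosome, start, end and a score per peak, a score made by the authors whose unit is not stated, and no read counts. For RNAPII and DRIP, whose titles name 2 libraries, 1 deposited list stands for both.

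Peaks were overlapped with 1 bp as minimum in Python 3.11.15 (pandas 2.3.3, numpy 2.4.6, scipy 1.17.1, statsmodels 0.14.6, matplotlib 3.10.9). Where several peaks of a list met an RNAPII peak, the one with the highest score gave the centre and score; coverage used all of them. Side results used RNAPII peaks whose NELF-A centre lay off the RNAPII centre. Shares have Wilson intervals. Odds ratios have Woolf intervals as listed and Mantel-Haenszel estimates over RNAPII widths, called equal width; medians at equal width weight the comparison peaks to the widths of the 4-target peaks. The steps were tested on simulated data.

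Named peaks were the 10 with the best sum of ranks, the 3 highest scores per list, the 3 longest stretches under all 4 lists and the widest size under 5000 bp; the same ranking outside regions of extra-high signal was added after seeing the data. The classes and lists were chosen with earlier results of these data known. The gene tables at hand are of another build than mm9, so gene names, gene lists, cell type markers and sequences were not used here. Alternatives changed the overlap, the score threshold, touching peaks, the X chromosome, the orientation, the regions of extra-high signal and the width.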

Additional observations from a re-analysis of the deposited data

How the results depend on the processing

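With an overlap of at least 50% of the shorter peak, 590 peaks were 4-target peaks, or 8.07% of RNAPII peaks under 5 kb, and 79.0% of them had a base under all 4 lists. DRIP then ran past the RNAPII peak in 65.9%, since a short overlap at an end no longer counts. With the upper 50% of each list by score, these 3 shares were 10.9%, 79.4% and 81.0%, and NELF-A and NELF-B lay on the same side in 89.6%. More DRIP lay on the NELF-A side in 55.6% in that setting (49.0 to 62.0%), against 50.6% as listed, and the interval includes 50%. Score ratios of 4-target over DRIP-free peaks were then 1.18 (NELF-A), 1.07 (NELF-B) and 1.11 (RNAPII per 250 bp), and the odds ratio for NELF-A in the outer 25% was 2.80 (1.98 to 3.96), against 1.64 as listed. The cause was not tested. At equal RNAPII width the ratios were 1.14 (NELF-A), 1.08 (NELF-B) and 1.05 (RNAPII per 250 bp), against 1.45, 1.30 and 1.24 as listed. That odds ratio was 1.26 at equal width, with an interval that includes 1. At equal width without the regions of extra-high signal, an alternative chosen after seeing the data, these 4 values were 1.11, 1.08, 1.05 and 1.13. All 11 results kept their direction and size, within their interval or 10%, with touching peaks merged, without the X chromosome and without the regions of extra-high signal, and so did the 2 side results when NELF-B set the orientation. The equal-width odds ratios for the DRIP side, the far-end neighbours, the side of both subunits and NELF-B inside NELF-A were also added after seeing the data.

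No paired analysis was possible because each target had 1 list, and there was no replicate to leave out. The lists hold no read counts, so DRIP signal below the authors' threshold was not measured in DRIP-free peaks. Positions are known to 250 bp, so shifts smaller than that were not detectable. The side results and the counts of both subunits on the same side also used centre offsets below 250 bp, where the side is uncertain.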
